A study of Mus musculus with 6 samples.

Results

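The complement genes described here are 9 genes outside the C1q complex, namely C2, C3, C4b, Cfb, Cfp, C3ar1, C5ar1, Serping1 and Cd55. They were taken from the 19973 genes of the table by gene symbol, and all 9 were found. Expression was measured by RNA sequencing in cultures of peritoneal macrophages from male C57BL/6 mice, an inbred laboratory strain. The old group came from mice aged 18 months and the young group from mice aged 2 months, with 3 libraries each. All mice of both groups had received 200 µg of zymosan A, a yeast cell wall preparation that starts a self-limiting peritonitis, into the peritoneal cavity. Their cells were lavaged 72 hours later, kept overnight in medium with L-cell supernatant, freed of cells that had not attached, and exposed to phosphate-buffered saline as vehicle for 6 hours. The comparison therefore asks how age changes complement transcripts in macrophages after a resolving peritonitis. The labels do not say whether a library stands for 1 mouse or for 1 of 3 sequencing runs of a mouse, so p-values measure the spread between libraries, which may be partly technical.

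Complement is a cascade of plasma proteins that tags particles for uptake and releases inflammatory peptides. Its classical and lectin branches cleave C4 and C2, its alternative branch uses factor B and properdin, and all of them meet at C3, whose fragments C3b and C3a mark targets and activate the receptor C3ar1. The liver makes most of the plasma supply, while macrophages make several components locally and carry receptors for the peptides C3a and C5a.

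In old cultures 6 of the 9 genes were higher than in young ones: C3, C4b, Cfb, C3ar1, C5ar1 and Cd55. Properdin (Cfp) and the C1 inhibitor gene (Serping1) did not pass the test, and C2 had too few reads to be tested. The rise ranged from 1.46-fold for C5ar1 to 8.02-fold for Cd55, as ratios of mean normalized counts, which are read counts divided by a size factor for each library. The log2 fold changes below are old minus young on the scale log2(normalized count + 1), a scale that understates the change of low genes. Genes were called where the adjusted p from limma, adjusted with the Benjamini-Hochberg method over all 11795 genes tested, was below 0.05. By the same rule 35.5% of all tested genes were called, 17.9% higher in old and 17.6% lower. The 8 tested members had a median log2 fold change of 1.12, and that of all tested genes was 0.00014. Cd55 and Serping1 reached the filter, a mean of at least 10 normalized counts, only through the old libraries, since their young means were 5.98 and 7.89. In the fit without that filter the number of called members was also 6. That fit covered all 19973 genes and called 4221 of them, 2160 higher in old. In 7 of the 9 members each old library lay above each young library, which held for 24.0% of all tested genes. In none of the 9 did each old library lie below each young one, which held for 23.6%.

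**Figure D1:**
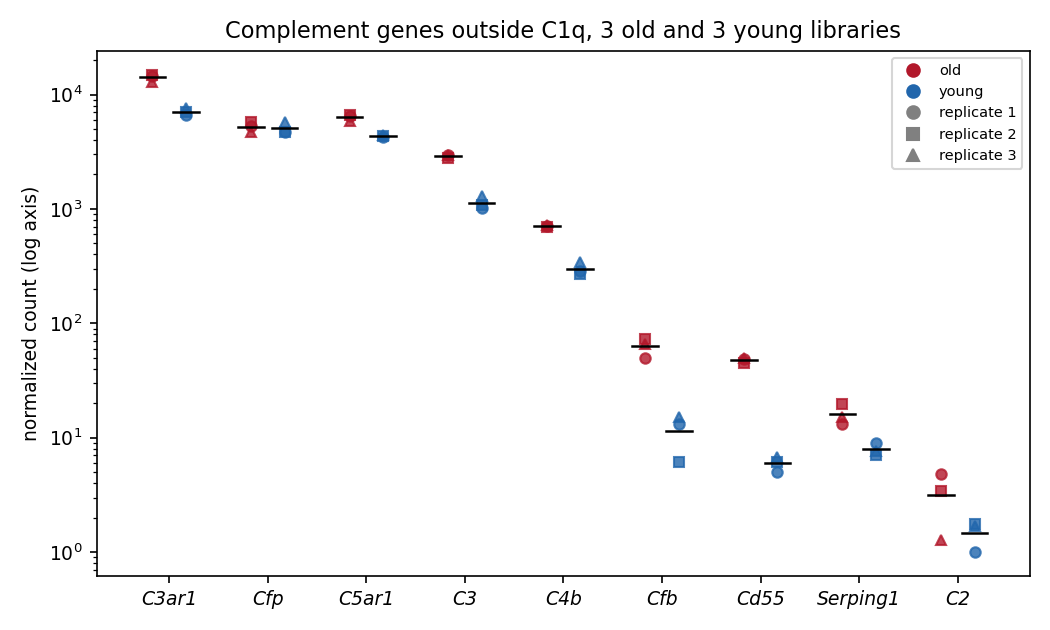
Normalized counts of the 9 complement genes on a log axis, with 1 point per library (red old, blue young, shape by replicate number) and a black bar at the mean of 3. The old and young points do not overlap except in Cfp and C2, and the C3ar1 points lie between 12881 and 14933 in old and between 6584 and 7559 in young libraries.

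Library depth lay between 8163016 and 13007604 reads and did not separate the ages. Old replicate 3 and young replicate 3 stood apart from the other libraries of their age: the median chi-square statistic over genes was 4.02 and 4.67 times the sampling noise for old replicate 3 against the other old libraries, and 1.49 times between old replicates 1 and 2. Across ages, young replicate 1 gave 16.2 times against old replicate 1 and 8.57 times against old replicate 3. Young replicate 3 gave 10.6 times against old replicate 1. Without both libraries numbered 3, an alternative added after seeing the data, 7 members were called higher, the added one being Cfp, and the share of all tested genes called higher was 30.3%. Of 8 macrophage markers 6 were called higher in old, beside 17.9% of all tested genes, while Lyz2 and Adgre1 were not called. The ages overlapped in Lyz2, Adgre1 and the called marker Fcgr1. Sums of the 8 markers, 345257 to 430483 normalized counts in old and 274834 to 349804 in young libraries, overlapped. Most of each sum was Lyz2 (296549 to 375055 in old, 238297 to 306878 in young). Each library was also centred on the mean log2 value of these 8 markers, each with equal weight, an alternative likewise added after seeing the data. The markers' log2 fold changes before centring ran from 0.26 (Csf1r) to 0.89 (Cd14). With this centring the median of all tested genes moved to -0.47, with 625 genes (5.30%) higher and 6954 lower in place of 2107 and 2076. Then 5 members (C3, C4b, Cfb, C3ar1 and Cd55) were called higher and Cfp was called lower, while C5ar1 lost its call. More macrophage RNA per library and more transcript per macrophage cannot be told apart in bulk cultures.

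C3, the component at which the branches meet, had 2954, 2814 and 2949 normalized counts in the old libraries, in the order of replicates 1 to 3 used throughout, and 1010, 1085 and 1289 in the young ones. The old libraries lay close together, and young replicate 3 was the highest of the young ones. The means were 2906 ± 79.5 and 1128 ± 145 (SD, n = 3 each), and limma put the log2 fold change at 1.37 with an SE of 0.09 (adjusted p = 4.03e-06). Of all tested genes, 2.46% had a higher fold change. The gene lies on the minus strand of chromosome 17, from 57203970 to 57228136 in GRCm38, the assembly that mm10 names. Centred on the macrophage markers the log2 fold change was 0.90 (limma adjusted p = 8.93e-05).

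C4b, the mouse C4 gene whose product is the classical and lectin counterpart of C3, followed with 705, 691 and 716 normalized counts in old and 286, 271 and 343 in young libraries. The values were again tight within old. The means were 704 ± 12.9 and 300 ± 38.0 (SD, n = 3 each), and limma put the log2 fold change at 1.24 with an SE of 0.10 (adjusted p = 1.07e-05). With macrophage centring it was 0.77 (limma adjusted p = 0.000425). C4b (chromosome 17, 34728380 to 34743882) has a near copy, C4a, with its midpoint 80.1 kb away. Of all 50-base stretches of C4b transcripts, 34.6% also occur in C4a, so that reads from these stretches may have been dropped or split and the level of C4b is uncertain to that extent. C4a itself had 3 to 11 normalized counts in every library, which was too few for the test.

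The 250 bases before the RefSeq start of C3, C3ar1 and Cfp (build GRCm38.p6, each on the minus strand and written 5′ to 3′) are shown because they give 2 genes that rose beside 1 that did not pass. RefSeq entries matched 5 of the 9 members. Capitals mark matches to the motifs searched.
C3, chr17:57228137-57228386: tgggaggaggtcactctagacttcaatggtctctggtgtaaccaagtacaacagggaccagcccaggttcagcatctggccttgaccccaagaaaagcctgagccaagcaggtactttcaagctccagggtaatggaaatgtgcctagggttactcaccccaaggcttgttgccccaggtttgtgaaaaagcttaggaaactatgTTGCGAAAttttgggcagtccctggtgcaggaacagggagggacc
C3ar1, chr6:122856158-122856407: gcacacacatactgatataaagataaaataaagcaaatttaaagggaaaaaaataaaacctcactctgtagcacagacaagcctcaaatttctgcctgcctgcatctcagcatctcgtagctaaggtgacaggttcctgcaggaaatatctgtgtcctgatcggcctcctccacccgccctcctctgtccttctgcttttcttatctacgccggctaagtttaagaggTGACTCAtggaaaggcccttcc
Cfp, chrX:20931556-20931805: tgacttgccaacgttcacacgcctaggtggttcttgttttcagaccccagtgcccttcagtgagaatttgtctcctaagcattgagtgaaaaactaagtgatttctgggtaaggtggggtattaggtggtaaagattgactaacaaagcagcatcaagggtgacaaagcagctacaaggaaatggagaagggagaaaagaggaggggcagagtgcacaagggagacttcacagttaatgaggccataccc
The motifs, chosen after the values were seen and searched on both strands, were TTGCNNAA for C/EBP factors, the consensus of the interferon-stimulated response element, TTCNNNGAA for the gamma-activated site of STAT factors, GAGGAA for PU.1 and other ETS factors, TGANTCA for AP-1, and the NF-kB consensus. C3 held a C/EBP match, TTGCGAAA, from 45 to 38 bases before the start, a motif found in 9.56% of 32851 promoters of the same length. C3ar1 held an AP-1 match, TGACTCA, from 22 to 16 bases before the start, a motif found in 6.75% of them. The windows of Cfp, C5ar1 and Cd55 held none of the 6 motifs. The other shares were 2.98% for the interferon-stimulated response element, 7.02% for the gamma-activated site, 23.3% for the PU.1 motif and 7.25% for NF-kB. No matches of different motifs overlapped. These letters describe the windows and say nothing on whether a factor was bound.

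The alternative branch moved unevenly. Cfb encodes factor B, the serine protease precursor of the alternative C3 convertase, and had 50.2, 72.7 and 66.0 normalized counts in old against 13.1, 6.14 and 15.2 in young libraries. All old values lay above all young ones, though within each age they spread more widely than those of C3. The log2 fold change was 2.43 ± 0.34 (SE; limma adjusted p = 0.000489), the means were 63.0 ± 11.5 and 11.5 ± 4.74 (SD, n = 3 each), and only 0.907% of tested genes had a higher fold change. With 1 library left out the log2 fold change ran from 2.07 (without young replicate 2) to 2.66 (without young replicate 3), and the call held each time. The reads behind these values were 42 to 85 per old and 7 to 18 per young library.

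Cfp encodes properdin, which stabilizes the alternative convertase, and was far more abundant than Cfb. It had 5354, 5707 and 4670 normalized counts in old and 4727, 4721 and 5718 in young libraries, so that the ages overlapped. The highest young library was replicate 3 and the lowest old library was also replicate 3. The log2 fold change was 0.05 ± 0.10 (SE; limma adjusted p = 0.713), but without both libraries numbered 3 it was 0.23 (limma adjusted p = 0.000808). With array quality weights all 8 tested members were called higher, Cfp among them. That setting called 3875 of all tested genes higher, against 2107 in the main fit. The sign of Cfp turned under quantile normalization (-0.10), without old replicate 2 (-0.0099) and with centring on macrophage markers (-0.41, limma adjusted p = 0.000388).

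C2, the classical and lectin protease that resembles factor B, was close to the limit of detection. Its reads numbered 4, 4 and 1 in old and 1, 2 and 2 in young libraries. Summed over libraries and scaled by depth the ratio of old to young was 2.14 with an exact 95% interval of 0.643 to 8.12, which covers counting error only, so a difference was not detectable at this depth. In the fit without a filter its log2 fold change was 0.65 ± 0.53 (SE; limma adjusted p = 0.444). C2 and Cfb lie next to each other on chromosome 17 (34862604 to 34898265 and 34856374 to 34862518), and the annotation places a read-through gene model, Gm20547, over both. That model covers 79.5% of the exon bases of Cfb and 42.8% of those of C2. How the authors' counting treated such reads is not given in the sources used here, so the levels of both genes are uncertain.

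Both anaphylatoxin receptors rose, C3ar1 to 2.00 times and C5ar1 to 1.46 times the young mean. C3ar1, the receptor for C3a, had 14586, 14933 and 12881 normalized counts in old against 6584, 7046 and 7559 in young libraries. Old replicate 3 was the lowest of its age and young replicate 3 the highest, yet the ages stayed well apart. The means were 14134 ± 1098 and 7063 ± 488 (SD, n = 3 each), and limma put the log2 fold change at 1.00 with an SE of 0.09 (adjusted p = 2.78e-05). Centred on the macrophage markers it was 0.53 (limma adjusted p = 6.58e-05). C5ar1, the receptor for C5a, had 6515, 6625 and 5888 against 4274, 4309 and 4454 normalized counts. The log2 fold change was 0.54 ± 0.07 (SE; limma adjusted p = 0.000336), and it was 0.08 (limma adjusted p = 0.296) when libraries were centred on the macrophage markers. C5ar2, the second C5a receptor and one that does not couple to G proteins, had 65.4 ± 11.7 and 56.2 ± 4.18 normalized counts (SD, n = 3 each) and was not called. C3ar1 lies on chromosome 6 (122847138 to 122856161) and C5ar1 on chromosome 7 (16246743 to 16259540).

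**Figure D2:**
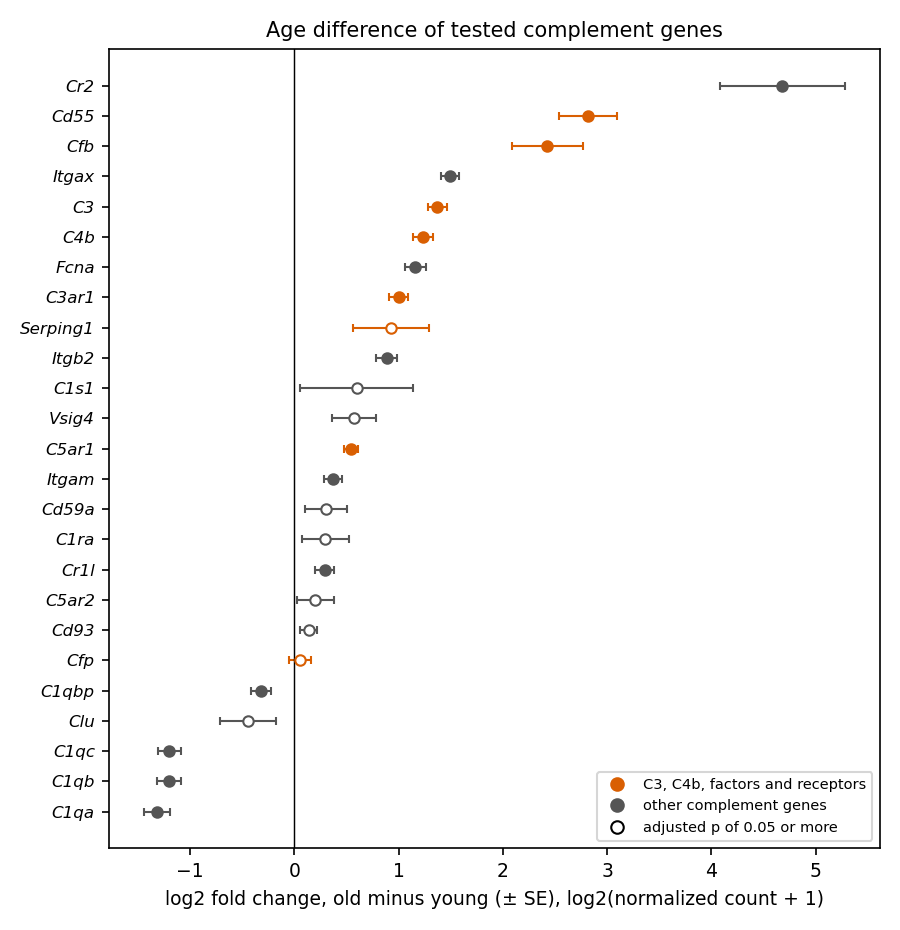
Log2 fold change (old minus young, with SE as bars) of the 8 tested complement genes described here (orange) and of 17 other tested complement genes (grey), open where the adjusted p was 0.05 or more. Orange points lie between 0.05 (Cfp) and 2.82 (Cd55), and the C1q genes lie lowest, at -1.20 to -1.32, while the place of Cr2, with 0 reads in young, depends on the pseudocount.

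The balance of the receptors was compared within each library, which cancels depth. The ratio of C3ar1 to C5ar1 was 2.24, 2.25 and 2.19 in old and 1.54, 1.64 and 1.70 in young libraries, so each old library had the higher ratio. In a 2-sided exact permutation test p was 0.1, the smallest that 3 against 3 allows, as it was for each of the 3 ratios compared (adjusted p = 0.1). The ratio of C3 to C4b was 4.13 ± 0.06 in old and 3.77 ± 0.23 in young (SD, n = 3 each), and the ratios of old to young means were 2.58 for C3 and 2.35 for C4b. Properdin per C3 went the other way, at 1.81 ± 0.22 in old and 4.49 ± 0.17 in young libraries. These ratios restate the fold changes of the single genes given above and are not separate results.

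**Figure D3:**
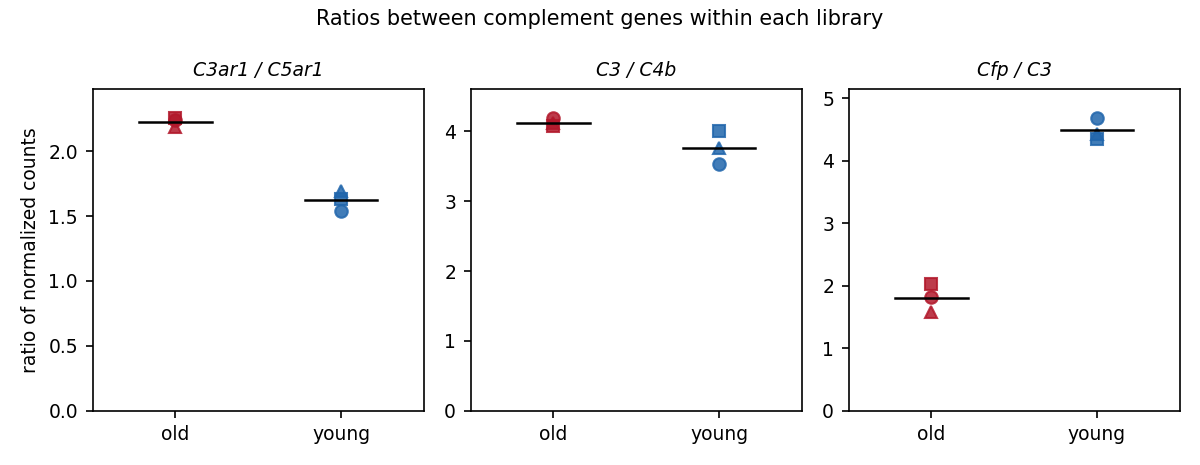
Ratios of normalized counts between pairs of complement genes within each library, on axes that start at 0, with 1 point per library (red old, blue young; circle, square and triangle for replicates 1, 2 and 3) and a bar at the mean of 3. C3ar1 to C5ar1 lies at 2.19 to 2.25 in old and 1.54 to 1.70 in young libraries, and Cfp to C3 at 1.58 to 2.03 and 4.35 to 4.68.

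Of the inhibitors among the 9 genes, Cd55 had the largest fold change. It encodes decay-accelerating factor, a membrane-anchored protein that takes convertases apart. Its values were 49.0, 45.3 and 49.5 normalized counts in old and 5.03, 6.14 and 6.76 in young libraries, which stand on 39 to 53 and 5 to 8 reads. The ages were far apart and each was tight. The log2 fold change was 2.82 ± 0.28 (SE; limma adjusted p = 5.51e-05), and 0.636% of tested genes had a higher one. Both values carry the limit that Cd55 reached the filter only through the old libraries, since its young mean was 5.98. In the fit without that filter the log2 fold change was 2.82 ± 0.31 (SE; limma adjusted p = 3.52e-05). A rank among all unfiltered genes was not taken. Cd55 lies on chromosome 1 (130439027 to 130462744) beside its copy Cd55b, and 9.12% of its 50-base stretches also occur in transcripts of other genes.

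Transcripts of other cell types were higher in the same old libraries as Cd55, a gene that lymphocytes and mast cells are known to express as well. All 8 B cell markers were called higher, beside 17.9% of all tested genes. The B cell sum was 2631, 2971 and 1395 normalized counts in old and 59.3, 51.8 and 56.6 in young libraries. Mast cell markers, with 5 of 6 tested called higher, summed to 557, 630 and 552 in old and 46.3, 71.1 and 71.0 in young libraries. Apart from Ighm the B cell markers reached the filter only through the old libraries, as did the mast cell markers Mcpt4 and Hdc. All 8 T and NK cell markers were below the filter and summed to 40.6 to 72.7 in old and 4.23 to 9.05 in young. Cd55 itself was 49.0, 45.3 and 49.5 normalized counts in old replicates 1 to 3, on 41, 53 and 39 reads. These reads are too few to rank the old libraries by Cd55. The part of these cells in the Cd55 difference was not tested.

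**Figure D4:**
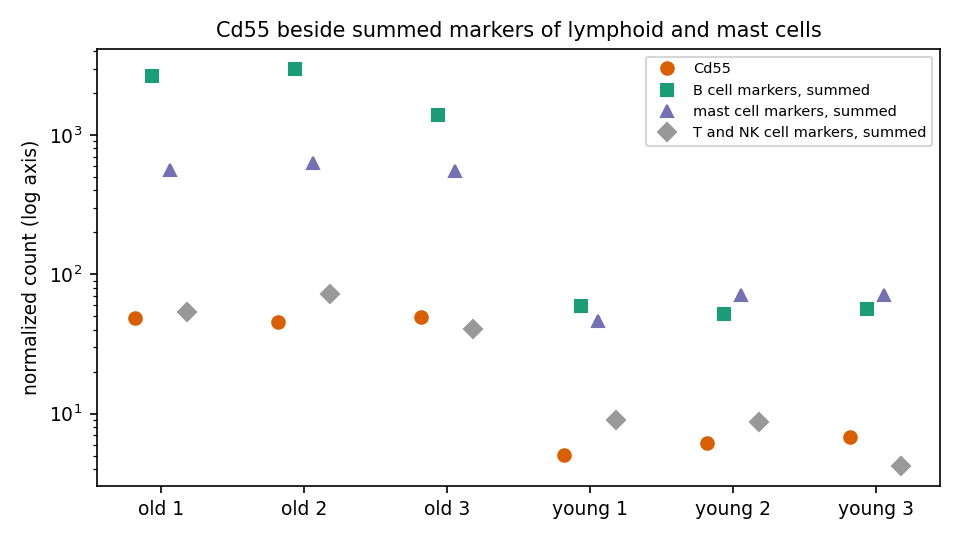
Normalized counts of Cd55 and summed normalized counts of B cell, mast cell, and T and NK cell markers in each of the 6 libraries, on a log axis. In old replicates 1 to 3 Cd55 is 49.0, 45.3 and 49.5, the B cell sum is 2631, 2971 and 1395, and the mast cell sum is 557, 630 and 552.

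Serping1, which encodes the plasma inhibitor of C1r, C1s and the lectin proteases, had 13.1, 19.7 and 15.2 normalized counts in old against 9.05, 7.02 and 7.61 in young libraries. Each old value lay above each young one, on 11 to 23 and 8 to 9 reads. The log2 fold change of 0.92 ± 0.37 (SE) was not called in limma (adjusted p = 0.0785). Without the variance trend (limma adjusted p = 0.00857), with array quality weights (limma adjusted p = 0.0138) and in edgeR's quasi-likelihood test on the recovered reads (adjusted p = 0.0495) it passed. Mesothelial markers, relevant because such cells also make complement regulators, were low: Msln, Upk3b, Krt18 and Wt1 had at most 5.98 normalized counts in any library. Of the mesothelial and fibroblast list, 9 of 10 genes were listed. Of 5 tested, 2 were higher (Col3a1 and Pdgfra) and 1 was lower (Col1a1), beside 17.9% and 17.6% of all tested genes. The list's sums of 685 to 771 in old and 662 to 804 in young libraries overlapped. Neutrophils also carry C5ar1 and properdin. Of 10 neutrophil markers 5 were listed, with sums of 7567 to 9534 in old and 431 to 557 in young that came almost wholly from Mmp8 and S100a8, both called higher, whereas Camp, Cxcr2 and Ltf had at most 2.01 normalized counts. Their part in the complement differences was not tested.

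Levels were set against each other per kilobase of annotated exon (normalized counts per kb). In old libraries the order was C3ar1 with 3283 (2992 to 3469), Cfp with 3020 ± 304, C5ar1 with 2468 ± 155, C3 with 565 ± 15.5, C4b with 124 ± 2.26, Cfb with 22.3 ± 4.09, Cd55 with 9.88 ± 0.47, Serping1 with 6.89 ± 1.43 and C2 with 0.815 ± 0.457 (SD, n = 3 each). C3ar1 overlapped in range with Cfp (2690 to 3287), and the ranges of all other neighbours were separate. In young libraries Cfp led with 2912 ± 331, followed by C5ar1 with 1691 ± 37.1 and C3ar1 with 1641 ± 113, and the ranges of these receptors overlapped (1663 to 1733 and 1529 to 1756). The order from C3 to C4b was kept, at 219 ± 28.1 and 52.7 ± 6.68 per kb. Below them Cfb had 4.06 ± 1.68, Serping1 3.39 ± 0.45, Cd55 1.23 ± 0.18 and C2 0.383 ± 0.107, with overlapping ranges for Cfb and Serping1. Cd55 thus stood above Serping1 in old and below it in young libraries.

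Of 48 other complement genes in a list drawn up for this comparison, 25 were listed in the table and 18 could be tested, and the others were not analysed here. Among the 18, 7 were called higher and 4 lower, with a median log2 fold change of 0.30, against 17.9% higher and 17.6% lower among all tested genes. Of the 7, Cr2 reached the filter only through the old libraries. The lower ones were the 3 C1q chains, which begin the classical branch, and C1qbp, a mitochondrial protein that binds C1q. C1qa had 1915 to 2513 normalized counts in old and 5127 to 6512 in young libraries. Fcna, ficolin A, a pattern receptor of the lectin branch, had 589 ± 70.4 and 262 ± 14.9 (SD, n = 3 each), 2.25-fold higher in old (log2 fold change 1.16, limma adjusted p = 2.5e-05).

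Of the tested receptors for C3 fragments bound to particles, Itgax, Itgb2, Itgam and Cr2 were called higher and Vsig4 was not called. Itgax and Itgb2, the subunits of complement receptor 4, were 2.81-fold and 1.85-fold higher in old. Itgam, which pairs with Itgb2 in complement receptor 3, was 1.29-fold higher with a log2 fold change of 0.37, but of opposite sign (-0.09) when centred on the macrophage markers, a list it belongs to. Its exons overlap the gene model Gm49368 over 68.7% of their length. Vsig4, the macrophage receptor for C3b and iC3b, was not called (log2 fold change 0.57, limma adjusted p = 0.0604), although it passed without old replicate 3 (limma adjusted p = 0.0038) or without young replicate 3 (limma adjusted p = 0.0403). Cr2, a receptor of B cells for C3d and also a B cell marker, had 70 reads over the old and 0 over the young libraries. Against a floor of 3 reads over the young group that is at least 27.7-fold higher.

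Among membrane inhibitors, Cr1l (Crry), which limits C3 deposition on rodent cells, was 1.22-fold higher in old (limma adjusted p = 0.0332). This call was lost without old replicate 1 (limma adjusted p = 0.113), old replicate 2 (0.102), young replicate 1 (0.120) or young replicate 2 (0.0933), and its sign turned with macrophage centring (-0.18). Cd59a, which blocks the membrane attack complex, had 50.8 ± 8.88 and 40.9 ± 6.41 normalized counts (SD, n = 3 each) and was not called. C1qbp also lost its call without old replicate 1 (limma adjusted p = 0.0997), young replicate 2 (0.107) or young replicate 3 (0.0711). The proteases C1ra and C1s1 were not called, and C1ra passed without old replicate 3 (limma adjusted p = 0.0463). Clu, Cd93 and C5ar2 were not called either.

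C4b, Cfb and C2 sit in the class III part of the major histocompatibility complex, and the genes around them were examined in the same fit. Within 200 kb on either side, 23 other genes were tested, of which 4 were called higher, 5 lower and 14 neither, with a median log2 fold change of -0.04. The share called higher was 17.4%, near that of all tested genes. The tested genes between C4b and Cfb were Stk19, Dxo, Skiv2l and Nelfe, and their log2 fold changes of -0.27, 0.01, 0.04 and -0.21 were not called. The neighbours called higher included Hspa1a and Hspa1b, near-identical stress chaperone genes named after their values were seen, at 1.80 and 1.84.

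**Figure D5:**
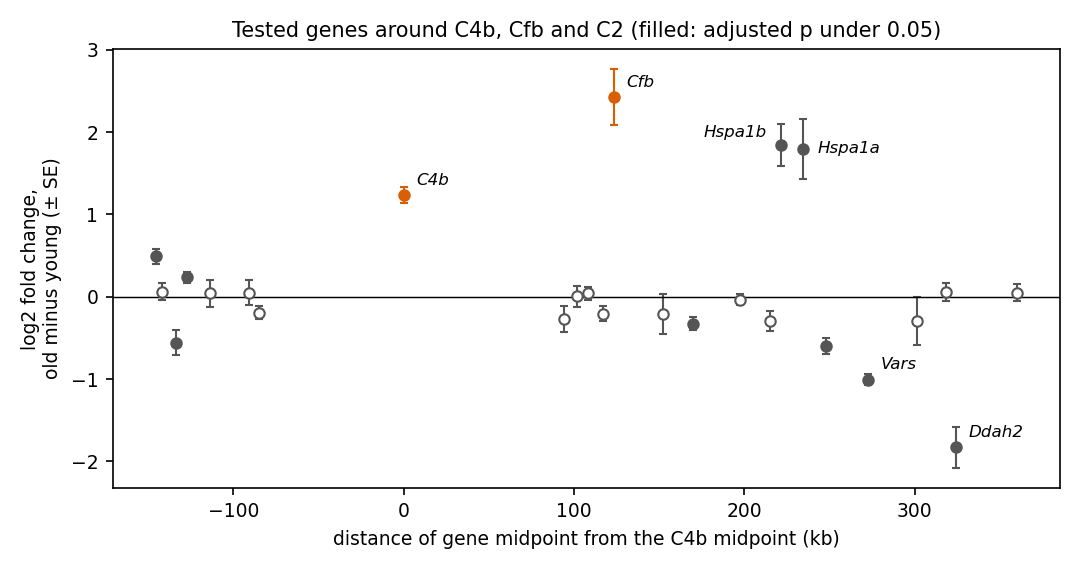
Log2 fold change (old minus young, with SE as bars) of tested genes around C4b and Cfb (orange) against the distance of each gene's midpoint from that of C4b in kb, filled where the adjusted p was below 0.05. C4b stands at 1.24 and Cfb at 2.43, and the 4 tested genes between them lie from -0.27 to 0.04.

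Of 13 tested transcription factors known to act on complement promoters, 4 were called higher and 3 lower, in a fit that called 17.9% of all tested genes higher and 17.6% lower. Irf7, an interferon-induced regulator, had a log2 fold change of 2.36 and Nr1h3, the oxysterol receptor LXR alpha, one of 0.54, which was 0.075 and no longer called (limma adjusted p = 0.614) with macrophage centring. Irf8, a factor of the macrophage lineage, and Cebpb, a C/EBP factor of the acute-phase response, were lower at -0.87 and -0.62.

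Of 15 tested partners of anaphylatoxin receptor signalling, 5 were called higher and 4 lower, beside the same shares of all tested genes. Arrb1, an arrestin that ends G protein signalling of such receptors, was higher (0.87, limma adjusted p = 7.37e-06), while its paralogue Arrb2, named after its value was seen, was lower (-0.36, limma adjusted p = 0.00308). Pik3r5, a subunit of phosphoinositide 3-kinase gamma, was higher (0.63) but not called with macrophage centring (0.16, limma adjusted p = 0.249). The catalytic subunit Pik3cg (-0.40) and Gna15, a G protein alpha subunit of blood cells (-0.96), were lower.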

How the data were processed

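RNA of peritoneal macrophages (3 old and 3 young vehicle libraries, TruSeq preparation) was measured, per the labels. The deposited table holds counts normalized by the authors, a signal per Ensembl gene and library, which the submitters' processing notes tie to DESeq2 and mm10. The sources used here do not give the aligner, counter, annotation release or strand use. Columns were whole multiples of 1 step, and 100% of values gave whole reads within 0.01 reads. Symbols matched 19917 of 19973 identifiers; positions and exon lengths come from GENCODE M21 (GRCm38).

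Values were fitted with limma 3.58.1 in R 4.3.3 (variance trend, pseudocount 1, mean of at least 10, no covariates), tested first on simulated data. The 8178 other genes were not tested. Alternatives were other pseudocounts, filters, normalizations and variance models, a replicate block, each library left out, and edgeR 4.0.16 and DESeq2 1.42.0 on recovered reads. Named genes are the 9 members, the tested other complement genes, and up to 4 called genes of each partner list with the smallest adjusted p; further names were chosen after their values were seen. Of the other complement genes, 1 is counted with its list but not reported here. Members and lists were chosen with earlier results of these data known. No pair of libraries agreed within sampling noise, and each counts as 1 sample.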

Additional observations from a re-analysis of the deposited data

How the results depend on the processing

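The calls of C3, C4b, Cfb, C3ar1 and Cd55 and the sign of their fold changes held under each alternative in which they could be tested, with log2 fold changes of 0.90 to 1.47, 0.77 to 1.34, 1.96 to 2.82, 0.53 to 1.12 and 2.27 to 2.99. Cfb and Cd55 fell below the filter at a mean of 50, which left 4 called members. C5ar1 lost its call only with macrophage centring. The number of called genes, 4183 (2107 higher, 2076 lower), was 7634 (3875 and 3759) with array quality weights, 6964 (3568 and 3396) without both libraries numbered 3, 7579 (625 and 6954) with macrophage centring and 2643 (1281 and 1362) with the replicate number as a block; the causes were not tested. With the replicate block the called members numbered 6 and the other complement genes 8 in place of 11, and Cr1l, Itgam and C1qbp lost their calls. Deviations from the mean of each age correlated at r = -0.38, -0.36 and -0.68 between same-numbered libraries. Between libraries of other numbers r ran from -0.38 to 0.54. Whether the numbers mark pairs cannot be told from these values. Members called lower numbered 1 with macrophage centring in place of 0, and members called higher numbered 8 with array quality weights in place of 6. Other complement genes called higher numbered 11 in place of 7 with array quality weights and without both libraries numbered 3. Signs turned for Cfp under quantile normalization (-0.10), without old replicate 2 (-0.0099, with single libraries left out giving up to 0.15) and with macrophage centring (-0.41), for Cd93 under quantile normalization (-0.17), and with macrophage centring for Cd93 (-0.33), C5ar2 (-0.27), Cr1l (-0.18), C1ra (-0.17), Cd59a (-0.17) and Itgam (-0.094). Nr1h3 (0.075) and Pik3r5 (0.16) lost their calls with that centring. On recovered reads edgeR called 4324 genes and DESeq2 3743. Depth limits C2, Serping1, Cd55 and Cfb, whose young libraries hold at most 18 reads each.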

Other observations

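Genes whose pattern over the 6 libraries was most like that of C3 were sought among 9203 other named protein-coding genes with a mean of at least 50 normalized counts. By Pearson's r of log2(normalized count + 1) they were Igf2r, Cma1, Ptprj, Xdh and Crebrf, all with r of 0.998 or more. As the libraries fall into 2 ages, such values are frequent: 837 of these genes (9.09%) reached 0.95. Cma1 is a mast cell protease, at 131 (old) and 11.3 (young) normalized counts on average, and Igf2r, the receptor that carries lysosomal enzymes, had 11670 and 7178.

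Of the 7 markers of resident large peritoneal macrophages, 6 were tested and 2, Lrg1 and Selp, were called higher, beside 17.9% of all tested genes. The sum of the 7 markers, 8263 to 10065 in old and 7010 to 8850 normalized counts in young libraries, came mostly from Adgre1. Gata6, the factor that sets this identity, averaged 9.99 in old against 14.9 normalized counts in young, and Timd4 had 10.4 and 9.52. Of the dendritic cell markers, none of 5 reached the filter, and their sum was 14.0 to 21.5 (old) and 9.30 to 14.1 (young) normalized counts.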
